A study of Mus musculus with 6 samples.

Results

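The Wnt genes examined here encode secreted Wnt ligands, the Frizzled, Lrp and Ror receptors that bind them, the R-spondins that amplify the signal, the secreted antagonists of the Sfrp, Dkk and Wif1 families, and intracellular genes that report or restrain the pathway. They were chosen by a rule on gene symbols, set with earlier results of these data known, and 53 of the 34745 genes in the deposited table met the rule: 19 ligands, 14 receptors, 4 R-spondins, 9 antagonists and 7 target or feedback genes. The study measured RNA from wild-type primary mouse renal fibroblasts, kidney cells that produce extracellular matrix and were grown from digested tissue. In 3 libraries the fibroblasts had been cultured alone without treatment, and in 3 libraries they had been cultured for 24 h under a porous insert holding induced Th17 cells, helper T cells that make interleukin-17. The cells shared medium without touching, and only the fibroblasts in the lower chamber were harvested. No source says if the 3 libraries in a group represent different mice, cultures or wells. Errors and p-values therefore measure how far these libraries vary, which may be technical variation alone.

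Wnt ligands are lipid-modified proteins that act over short distances. A Wnt bound to a Frizzled and to Lrp5 or Lrp6 stabilises beta-catenin, which enters the nucleus and works with Tcf and Lef factors, whereas a Wnt bound to a Frizzled with Ror1 or Ror2 can signal without beta-catenin. In the kidney, Wnt4 and Wnt9b are required for nephron formation during development, and Wnt signalling is known to be reactivated in fibroblasts and tubules after injury.

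Total counts were between 12050529 and 13209581 per library, so the groups were sequenced to similar depth. Libraries of the same group differed by a chi-square of at least 6.07 per gene, where counting noise gives 1, so no library was a copy of another. All 12 fibroblast markers were expressed. Their summed level was 46885 to 48977 CPM (counts divided by the TMM-adjusted size of each library) alone and 23072 to 26299 CPM in coculture. This sum mainly follows the most abundant markers, among them Col1a1, Col1a2 and Fn1. Of the 12, 10 were lower with Th17 cells, where 20% of all genes tested were lower. S100a4 was not called, and Dcn was higher, with 6495, 6351 and 6006 counts alone and 19533, 18593 and 18002 in coculture. The summed level of 13 T cell markers was 7.92 to 9.64 CPM alone and 4.79 to 5.58 CPM in coculture, and 4 of the 13 (Cd3d, Il17a, Il17f and Ccr6) were at 0 counts in every library. Of the 3 T cell markers with enough counts to test, Lck and Ptprc were lower in coculture, and Trac was not called, with 20, 40 and 38 counts alone and 41, 27 and 38 in coculture (log2 fold change 0.03). The summed level of 11 macrophage markers was 47.2 to 49.0 CPM alone and 8.22 to 10.4 CPM in coculture, with all 4 tested markers lower. Sums over 7 endothelial markers were 9.72 to 9.95 CPM alone against 4.72 to 5.58 CPM in coculture. Of those tested, only Kdr was lower, with 65, 74 and 68 counts alone and 2, 1 and 2 in coculture, and Pecam1 and Egfl7 were not called. Sums over 10 kidney epithelial markers were 4.99 to 6.40 CPM against 2.43 to 2.74 CPM. Of those tested, only Lrp2 was lower, with 49, 38 and 27 counts alone and 8, 4 and 11 in coculture, and Slc12a1 and Krt18 were not called. In RNA from whole cultures, fewer cells of a type and less RNA per cell cannot be told apart, and the part of these other cells in the results below was not tested.

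The comparison of cocultured with lone fibroblasts asked how Wnt pathway transcripts differ when Th17 cells are present. Of the 53 genes, 29 had enough counts to test. Coculture was associated with lower expression of 15 and higher expression of 5 (edgeR's quasi-likelihood test, Benjamini-Hochberg adjusted p below 0.05). The 20 genes called were 69.0% of those tested, compared with 37.1% of all 13088 genes tested. By direction, 2612 of all genes tested, or 20%, were lower and 2244, or 17.1%, were higher. With a fold change above 2 in addition, the limit used in the study, 9 members were lower and 2 higher, or 37.9% of those tested against 11.6% of all genes tested. Among all genes that share was 7.78% lower and 3.87% higher. For 21 members the lone and cocultured CPM ranges were separate, 72.4% of those tested, against 50.4% of all genes tested. The median log2 fold change of the tested members was −0.55, and that of all genes tested was 0.00.

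**Figure D1:**
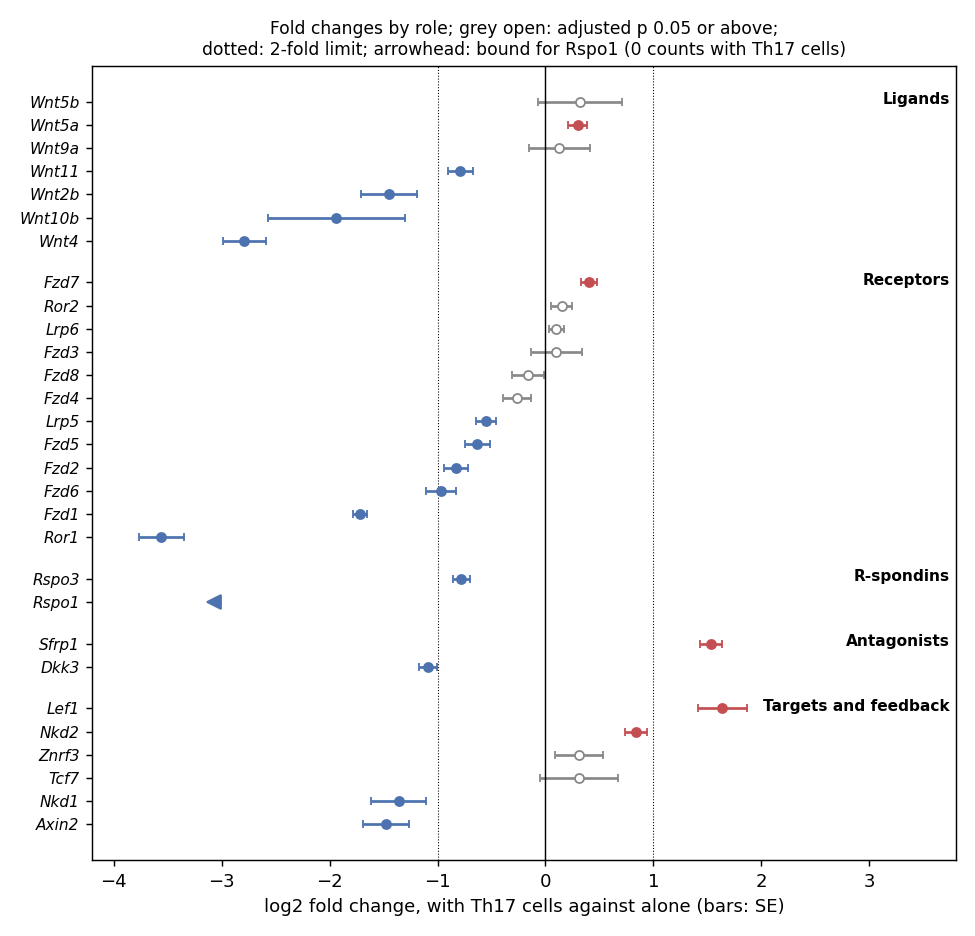
Log2 fold change of each of the 29 tested members with Th17 cells against alone (points, with SE as bars), grouped by role, with filled points for an adjusted p below 0.05 and dotted lines at the 2-fold limit. Lower members outnumber higher ones 15 to 5. Rspo1 is drawn as an arrowhead at its bound of at least 8.42-fold lower, and Ror1 and Wnt4 have the lowest fitted values among the other members.

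Of the 24 untested members, 9 had 0 counts in every library and 15 had a count but never more than 10 in a library. The ligands at 0 were Wnt3, Wnt3a, Wnt7a, Wnt7b, Wnt8b, Wnt9b and Wnt10a, and the antagonists at 0 were Dkk4 and Sfrp5. A count of 0 sets a limit of 3 counts, which was 0.223 to 0.254 CPM in these libraries.

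Among the ligands, 4 of the 7 tested fell and 1 rose, a called share of 71.4% against 37.1% of all genes tested. Wnt4, the inducer of epithelium in the developing kidney (ENSMUSG00000036856, chromosome 4, 137277489 to 137299726), was counted 150, 168 and 163 times in the lone libraries and 29, 27 and 17 times in the cocultured ones. Every cocultured library was far below every lone library. Expression decreased from 12.9 ± 1.12 to 1.86 ± 0.488 CPM (mean ± SD of 3 libraries each), a 6.91-fold difference (log2 fold change −2.79 ± 0.202 SE, adjusted p = 7.31e-06 by edgeR). Wnt11, a ligand that mostly acts without beta-catenin (ENSMUSG00000015957, chromosome 7, 98835112 to 98855195), had 201, 205 and 196 counts alone and 119, 114 and 133 counts with Th17 cells. Its groups did not overlap, and the decrease was 1.73-fold (log2 fold change −0.79 ± 0.114 SE, adjusted p = 5.92e-04 by edgeR).

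Wnt5a was the exception among the called ligands. It is the best known ligand of Ror receptors (ENSMUSG00000021994, chromosome 14, 28504750 to 28527447), and its counts were 1023, 944 and 1051 alone and 1458, 1194 and 1269 in coculture. The groups did not overlap, but the difference was small, from 80.9 ± 7.27 to 99.6 ± 7.77 CPM (mean ± SD of 3 libraries each; log2 fold change 0.30 ± 0.088 SE, adjusted p = 0.0251 by edgeR). The call was lost without lone replicate 1, lone replicate 2 or cocultured replicate 1, with edgeR adjusted p of 0.0789, 0.0931 and 0.0797.

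Of the less abundant ligands, Wnt2b and Wnt10b, both able to act through beta-catenin, were lower in coculture. Wnt2b had 47, 41 and 50 counts alone and 22, 12 and 19 with Th17 cells, with no overlap (log2 fold change −1.45 ± 0.263 SE, adjusted p = 0.00226 by edgeR). Wnt10b had 15, 19 and 11 counts alone and 5, 7 and 0 in coculture (log2 fold change −1.94 ± 0.636 SE, adjusted p = 0.0395 by edgeR). At these counts the Wnt10b call rested on single libraries. The edgeR adjusted p was 0.0885, 0.126 and 0.0619 without lone replicates 1, 2 and 3, and 0.0785 without cocultured replicate 1. Wnt5b and Wnt9a did not pass the test, with log2 fold changes of 0.32 (SE 0.386, edgeR adjusted p = 0.552) and 0.13 (SE 0.280, edgeR adjusted p = 0.762). Lone replicate 2 had 7 counts of Wnt5b, compared with 21 and 19 in the other lone libraries and 20, 20 and 22 in coculture, and cocultured replicate 3 had 30 counts of Wnt9a against 65 and 60 in its group.

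Per unit of gene length, Wnt5a was the most abundant ligand in every library. Its level was 6.32 ± 0.584 FPKM alone and 8.12 ± 0.646 FPKM in coculture (SD, n = 3 each), where FPKM is the fragment number scaled by gene length and by library total. Wnt4, at 3.01 ± 0.269 FPKM, and Wnt11, at 2.39 ± 0.0798 FPKM, came next in lone fibroblasts (SD, n = 3 each), and the 3 lone Wnt4 values lay above the 3 lone Wnt11 values. In coculture Wnt11 came second at 1.44 ± 0.117 FPKM, and Wnt4, at 0.452 ± 0.117 FPKM (SD, n = 3 each), overlapped with Wnt9a, which had 0.368 to 0.774 FPKM. Wnt5a therefore made up 43.5% to 45.8% of the summed FPKM of all ligands in lone fibroblasts and 68.3% to 70.9% in cocultured fibroblasts, while Wnt4 went from 20.1% to 23.1% down to 2.84% to 4.61%. The summed FPKM of the ligands was 14 ± 1.02 alone and 11.6 ± 0.817 in coculture (SD, n = 3 each). Shares and sums are descriptions of levels and were not tested.

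**Figure D2:**
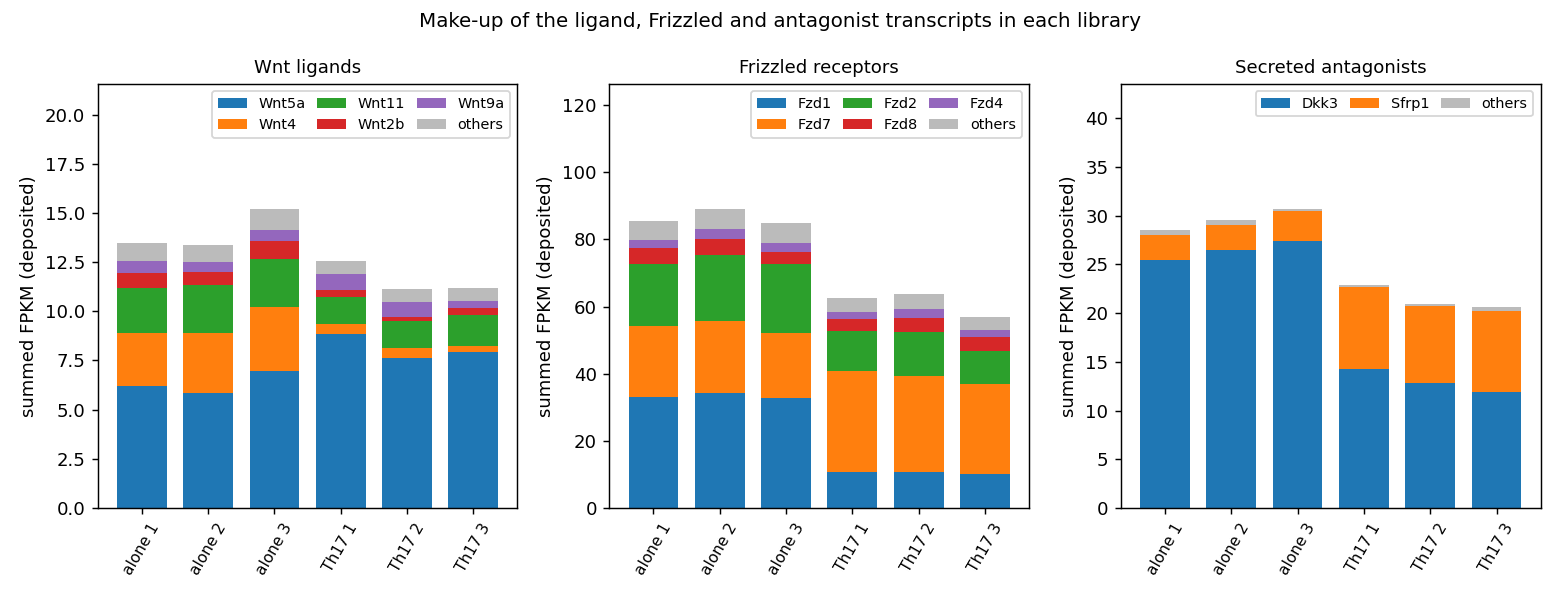
Summed deposited FPKM of the Wnt ligands, Frizzled receptors and secreted antagonists in each of the 6 libraries (stacked bars, linear axes from 0), with the most abundant members in colour and all others in grey. Wnt5a takes 68.3% to 70.9% of the ligand total with Th17 cells, Fzd7 replaces Fzd1 as the largest Frizzled, and Sfrp1 takes 36.5% to 40.2% of the antagonist total. The antagonist total holds only genes that met the rule and leaves out the Sfrp family gene Frzb.

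Of 12 tested receptors, 6 fell and 1 rose, a called share of 58.3% against 37.1% of all genes tested. The steepest decrease was that of Ror1, a receptor tyrosine kinase that binds Wnt5a (ENSMUSG00000035305, chromosome 4, 100095791 to 100444765). Ror1 was counted 248, 220 and 211 times alone and 14, 27 and 19 times in coculture, so the groups lay far apart. Its expression decreased 11.8-fold, from 18.2 ± 0.973 to 1.54 ± 0.546 CPM (mean ± SD of 3 libraries each; log2 fold change −3.56 ± 0.210 SE, adjusted p = 1.82e-06 by edgeR). The related receptor Ror2, which also binds Wnt5a, had 382, 423 and 342 counts alone and 464, 467 and 404 in coculture and did not pass the test (log2 fold change 0.15 ± 0.10 SE, adjusted p = 0.284 by edgeR). The FPKM of Ror2 divided by that of Ror1 was 1.33 to 1.66 in lone libraries and 14.9 to 28.6 in cocultured libraries.

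Frizzled genes moved in both directions. Fzd1, the most abundant Frizzled in lone fibroblasts (ENSMUSG00000044674, chromosome 5, 4753839 to 4758035), had 1829, 1855 and 1657 counts alone and 596, 564 and 543 with Th17 cells. The groups lay far apart, and the decrease was 3.30-fold, from 143 ± 3.32 to 43.3 ± 1.73 CPM (mean ± SD of 3 libraries each; log2 fold change −1.72 ± 0.065 SE, adjusted p = 1.29e-07 by edgeR). Fzd7 (ENSMUSG00000041075, chromosome 1, 59482424 to 59486955) was the only Frizzled that rose among those tested. It had 1261, 1266 and 1052 counts alone and 1788, 1620 and 1548 in coculture, a difference of 1.32-fold without overlap (log2 fold change 0.40 ± 0.074 SE, adjusted p = 0.00263 by edgeR). Fzd2 decreased from 906, 941 and 915 counts to 572, 604 and 461 counts (log2 fold change −0.83 ± 0.109 SE, adjusted p = 3.58e-04 by edgeR). Fzd2, Fzd1 and Fzd7 belong to one subgroup of the Frizzled family by sequence, so the members of this subgroup differed in direction.

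Fzd6, a receptor known for planar cell polarity, went from 130, 154 and 142 counts to 74, 73 and 82 counts (log2 fold change −0.97 ± 0.141 SE, adjusted p = 6.40e-04 by edgeR). Fzd5 went from 290, 270 and 233 counts to 171, 195 and 173 counts (log2 fold change −0.63 ± 0.115 SE, adjusted p = 0.00240 by edgeR). Both decreased without overlap between the groups. Fzd3, Fzd4 and Fzd8 did not pass the test, with log2 fold changes of 0.10 (SE 0.235), −0.26 (SE 0.129) and −0.16 (SE 0.148) and edgeR adjusted p of 0.783, 0.145 and 0.422. Fzd9 and Fzd10 had at most 10 and 2 counts in a library and were not tested.

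The beta-catenin co-receptors Lrp5 and Lrp6 also differed in their results. Lrp5 decreased from 769, 805 and 732 counts to 601, 573 and 478 counts (log2 fold change −0.55 ± 0.095 SE, adjusted p = 0.00168 by edgeR), with no overlap. Lrp6 had 953, 848 and 861 counts alone and 1062, 966 and 968 with Th17 cells, which did not pass the test (log2 fold change 0.10 ± 0.071 SE, adjusted p = 0.322 by edgeR). Whether the change of one gene differed from that of its relative was not tested for Lrp5 and Lrp6, for Ror1 and Ror2 or among the Frizzleds.

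The order of the Frizzled levels changed accordingly. In lone fibroblasts Fzd1 led with 33.3 ± 0.733 FPKM, followed by Fzd7 with 20.6 ± 1.21 FPKM and Fzd2 with 19.8 ± 1.0 FPKM (SD, n = 3 each), and the values of Fzd7 and Fzd2 overlapped between libraries. In coculture Fzd7 led with 28.4 ± 1.64 FPKM, while Fzd2, at 11.6 ± 1.67 FPKM, and Fzd1, at 10.5 ± 0.368 FPKM, overlapped (SD, n = 3 each). Fzd7 thus held 22.7% to 24.6% of the summed Frizzled FPKM alone and 44.7% to 48.1% with Th17 cells, and Fzd1 went from 38.3% to 38.6% down to 16.8% to 17.8%. The Frizzled sum was 86.5 ± 2.29 FPKM alone and 61.0 ± 3.56 FPKM in coculture (SD, n = 3 each).

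**Figure D3:**
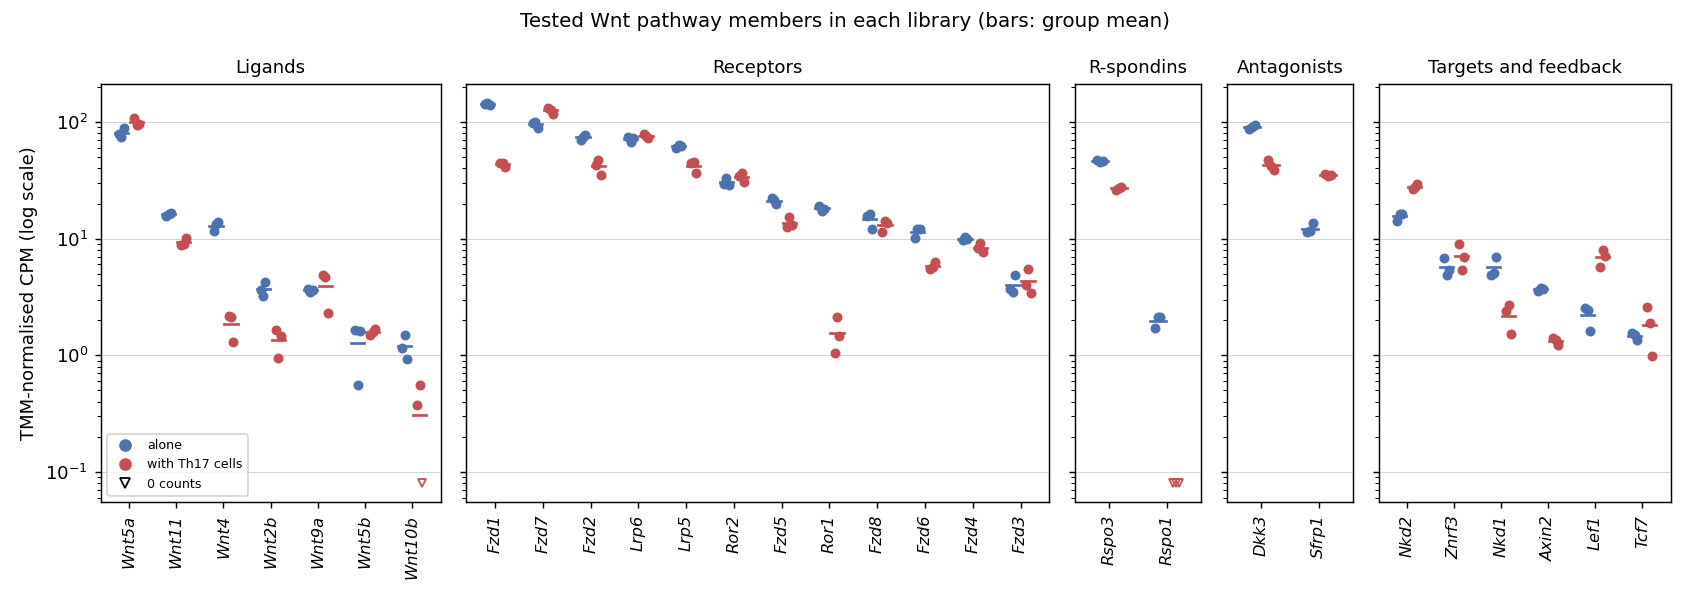
TMM-normalised CPM on a log axis for each tested member in the 3 lone libraries (blue) and the 3 libraries with Th17 cells (red), with group means as bars and open triangles for 0 counts. Ror1, Wnt4, Fzd1 and Rspo1 show wide gaps between the groups, and Sfrp1, Nkd2 and Lef1 lie higher with Th17 cells without overlap.

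R-spondins are ligands of the Lgr receptors and raise the number of Frizzleds on the cell surface. Both members that could be tested were lower in coculture, where 20% of all genes tested were lower. Rspo3 (ENSMUSG00000019880, chromosome 10, 29453109 to 29535867) had 612, 571 and 553 counts alone and 348, 345 and 367 with Th17 cells. The decrease was 1.72-fold without overlap, from 46.4 ± 1.22 to 27.0 ± 1.03 CPM (mean ± SD of 3 libraries each; log2 fold change −0.78 ± 0.077 SE, adjusted p = 5.34e-05 by edgeR). Rspo3 supplied 94.1% to 96.0% of R-spondin FPKM alone and 98.9% to 99.4% in coculture. Rspo1 (ENSMUSG00000028871, chromosome 4, 124986430 to 125009099) was counted 22, 27 and 25 times alone and had 0 counts in each cocultured library. Against a floor of 3 counts per library, it was at least 8.42-fold lower (edgeR adjusted p = 2.05e-04). Rspo2, with 3 to 10 counts alone and 3 or 4 in coculture, and Rspo4, with at most 1 count, were not tested.

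The 2 antagonists tested among the members were both called, where 37.1% of all genes tested were, and they moved in opposite directions. Sfrp1, which binds Wnt proteins through a Frizzled-like domain (ENSMUSG00000031548, chromosome 8, 23411502 to 23449632), had 146, 147 and 160 counts alone and 480, 435 and 464 in coculture. Its groups were widely separated, and expression rose 2.88-fold, from 12.2 ± 1.19 to 35.0 ± 0.789 CPM (mean ± SD of 3 libraries each; log2 fold change 1.53 ± 0.102 SE, adjusted p = 4.07e-06 by edgeR). Dkk3, a divergent member of the Dickkopf family (ENSMUSG00000030772, chromosome 7, 112116019 to 112159057), had 1131, 1150 and 1109 counts alone and 630, 537 and 511 in coculture. It fell 2.13-fold, from 90.8 ± 2.99 to 42.6 ± 4.0 CPM (mean ± SD of 3 libraries each; log2 fold change −1.09 ± 0.084 SE, adjusted p = 1.08e-05 by edgeR).

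Among the antagonists that met the rule, Dkk3 nevertheless remained the most abundant per length in each library. Dkk3 was placed with the antagonists by its symbol, and whether it acts against Wnt was not tested. It held 89.3% to 89.6% of their summed FPKM alone and 57.6% to 62.3% with Th17 cells. Its level was 26.5 ± 0.955 FPKM alone and 13 ± 1.19 FPKM with Th17 cells (SD, n = 3 each). Sfrp1 reached 8.20 ± 0.226 FPKM in coculture, up from 2.72 ± 0.276 FPKM (SD, n = 3 each). Its share of the FPKM of the 9 antagonists that met the rule went from 8.79% to 9.89% alone up to 36.5% to 40.2%. Frzb, an Sfrp family member whose symbol did not meet the rule, is outside this sum. Frzb had 13.1 ± 0.426 FPKM alone and 10.7 ± 0.749 FPKM in coculture (SD, n = 3 each), means above those of Sfrp1. The classical Lrp-binding antagonists Dkk1 and Dkk2 had at most 2 and 4 counts in a library, and Wif1 at most 1. Sfrp2 had 10, 10 and 4 counts alone and 3, 0 and 2 in coculture, and Sfrp4 had 0 to 5 counts alone and 3 to 9 in coculture. None of these 5 genes had enough counts to be tested.

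Of 6 tested target and feedback genes, 2 were lower and 2 higher, a called share of 66.7% against 37.1% of all genes tested. Axin2, a scaffold of the beta-catenin destruction complex and a widely used target of the pathway (ENSMUSG00000000142, chromosome 11, 108920349 to 108950783), had 46, 48 and 44 counts alone and 19, 17 and 16 in coculture. The libraries of each group were close together, and Axin2 fell 2.78-fold, from 3.69 ± 0.113 to 1.32 ± 0.0985 CPM (mean ± SD of 3 libraries each; log2 fold change −1.48 ± 0.215 SE, adjusted p = 6.40e-04 by edgeR). Nkd1, an inhibitor of Dishevelled that is itself induced by Wnt signals, decreased from 63, 64 and 83 counts to 32, 34 and 20 counts (log2 fold change −1.36 ± 0.257 SE, adjusted p = 0.00282 by edgeR).

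Its relative Nkd2 changed in the opposite direction (ENSMUSG00000021567, chromosome 13, 73818534 to 73847631). Nkd2 had 183, 206 and 192 counts alone and 357, 353 and 387 in coculture, an increase from 15.6 ± 1.18 to 27.9 ± 1.46 CPM (mean ± SD of 3 libraries each; log2 fold change 0.84 ± 0.102 SE, adjusted p = 2.01e-04 by edgeR). Lef1, a partner of beta-catenin on DNA (ENSMUSG00000027985, chromosome 3, 131110471 to 131224356), had 33, 31 and 19 counts alone and 77, 101 and 93 in coculture. Its groups did not overlap, and it rose 3.11-fold, from 2.21 ± 0.522 to 6.91 ± 1.11 CPM (mean ± SD of 3 libraries each; log2 fold change 1.64 ± 0.228 SE, adjusted p = 4.89e-04 by edgeR). Lef1 and Tcf7 are also expressed by T cells. Of the 13 T cell markers, 4 were at 0 counts in every library, Cd3e had 0, 0 and 6 counts in coculture, Trac was not called, and the sum of 4.79 to 5.58 CPM in coculture against 7.92 to 9.64 CPM alone contains the lower Lck and Ptprc. The part of T cell RNA in the Lef1 values was not tested. Tcf7 had 20, 19 and 16 counts alone and 35, 24 and 13 in coculture and did not pass the test (log2 fold change 0.31 ± 0.360 SE, adjusted p = 0.536 by edgeR). Znrf3, a ubiquitin ligase that removes Frizzleds from the surface, did not pass either (log2 fold change 0.31 ± 0.219 SE, adjusted p = 0.303 by edgeR), and its relative Rnf43 had at most 3 counts.

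**Figure D4:**
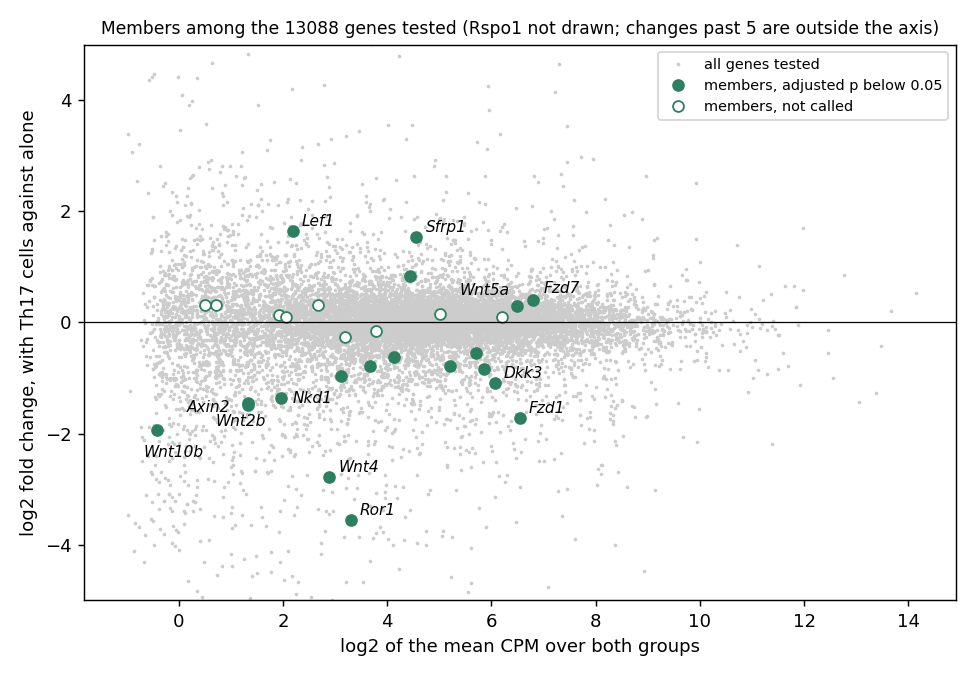
Log2 fold change against log2 mean CPM for all 13088 genes tested (grey) and for the tested members (green, filled for an adjusted p below 0.05, Rspo1 not drawn). Ror1, Wnt4 and Fzd1 lie well below 0 at their expression level, Sfrp1 and Lef1 lie above it, and Wnt5a and Fzd7 are the most abundant members that rose.

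Promoter sequences are shown for genes with the steepest decreases (Ror1 and Rspo1), for a target that fell and a feedback gene that rose (Axin2 and Nkd2), and for a called gene whose promoter held a Tcf/Lef motif (Wnt11). They are the 250 bases before the start, 5′ to 3′ on the gene's strand, from RefSeq on GRCm38.p6, and none of the 5 overlaps an annotated exon. The letters CTTTGAT and CTTTGAA, short forms of the Tcf/Lef motif, were searched on both strands, and they share all bases but the last, so they cannot match at the same position. Capitals mark a match.
Ror1, chr4:100095541-100095790, plus strand: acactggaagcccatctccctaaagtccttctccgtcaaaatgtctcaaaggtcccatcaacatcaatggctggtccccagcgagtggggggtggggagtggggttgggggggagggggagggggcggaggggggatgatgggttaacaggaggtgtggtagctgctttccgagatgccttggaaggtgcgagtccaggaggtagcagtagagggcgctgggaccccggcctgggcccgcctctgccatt
Rspo1, chr4:124986180-124986429, plus strand: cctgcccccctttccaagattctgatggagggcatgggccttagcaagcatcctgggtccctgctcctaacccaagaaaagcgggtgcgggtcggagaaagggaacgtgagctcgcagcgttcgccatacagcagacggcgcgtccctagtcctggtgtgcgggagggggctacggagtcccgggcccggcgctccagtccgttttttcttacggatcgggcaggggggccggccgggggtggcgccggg
Axin2, chr11:108920099-108920348, plus strand: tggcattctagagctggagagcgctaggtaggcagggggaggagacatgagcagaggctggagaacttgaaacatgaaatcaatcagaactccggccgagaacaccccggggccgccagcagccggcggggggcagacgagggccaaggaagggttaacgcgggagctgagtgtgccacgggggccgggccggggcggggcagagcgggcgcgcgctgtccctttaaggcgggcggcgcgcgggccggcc
Nkd2, chr13:73847632-73847881, minus strand: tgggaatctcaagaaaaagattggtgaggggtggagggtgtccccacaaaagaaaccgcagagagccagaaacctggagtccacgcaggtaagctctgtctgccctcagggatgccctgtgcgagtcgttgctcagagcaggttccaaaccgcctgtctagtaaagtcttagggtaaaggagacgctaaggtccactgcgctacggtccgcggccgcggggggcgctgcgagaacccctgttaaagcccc
Wnt11, chr7:98834862-98835111, plus strand: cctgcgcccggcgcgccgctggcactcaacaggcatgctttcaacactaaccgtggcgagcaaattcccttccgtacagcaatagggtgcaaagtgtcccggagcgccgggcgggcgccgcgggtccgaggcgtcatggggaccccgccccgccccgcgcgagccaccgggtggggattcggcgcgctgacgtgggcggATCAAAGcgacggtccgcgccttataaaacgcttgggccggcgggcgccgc
The single match in the Wnt11 promoter begins 51 bases before the start and is read on the minus strand. Of the 20 called members, 13 had a promoter in the RefSeq table. A motif was held by 1 of these, or 7.69%, against 7.58% of 27025 promoters of all genes. Where a gene had several promoters, that nearest its start in the deposited table was taken for members. For all genes it was that with the lowest coordinate, so these shares rest on unlike choices. A match is a description of sequence, and the absence of one says only that these letters are not in the window.

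To place the members in the wider pathway, 61 other genes were examined, of which 49 were tested. In all, 11 were higher and 12 lower with Th17 cells, 46.9% of those tested against 37.1% of all genes tested, and their median log2 fold change was −0.03. Past the 2-fold limit 4 were higher and 3 lower, 14.3% of those tested against 11.6% of all genes tested. Ccnd1, the gene of cyclin D1 and a known target of beta-catenin, had 1198, 1155 and 1067 counts alone and 4895, 4775 and 4514 in coculture (log2 fold change 1.98 ± 0.061 SE, adjusted p = 4.56e-08 by edgeR). Wisp1, another known target, had 5774, 5856 and 5395 counts alone and 3273, 2653 and 2428 in coculture (log2 fold change −1.10 ± 0.093 SE, adjusted p = 2.02e-05 by edgeR). These 2 targets thus changed in opposite directions, without overlap between groups. The other tested targets, Myc and Tnfrsf19, were not called (log2 fold change 0.01 and −1.12, edgeR adjusted p = 0.970 and 0.0658).

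The other pathway genes past the limit, with a mean of 100 counts or more in whichever group was higher, were Apc2, a relative of the destruction complex scaffold Apc, with a log2 change of 1.88 ± 0.158 SE (adjusted p = 1.90e-05 by edgeR), and Tle2, a co-repressor of Tcf factors, with a log2 change of 1.07 ± 0.227 SE (adjusted p = 0.00541 by edgeR). On the lower side were Pygo1, a nuclear co-activator of beta-catenin, with a log2 change of −1.15 ± 0.159 SE (adjusted p = 4.76e-04 by edgeR), and Lgr6, an R-spondin receptor, with a log2 change of −1.01 ± 0.188 SE (adjusted p = 0.00267 by edgeR). By group, neither of the 2 genes of Wnt secretion passed the test. Of 16 relay and destruction complex genes 3 were higher and 2 lower, a called share of 31.2%, and of 10 nuclear partners 2 were higher and 4 lower, a share of 60%, where 37.1% of all genes tested were called. Among 11 tested genes of other co-receptors and planar polarity 4 were higher and 2 lower, a share of 54.5%. Of 3 tested extracellular inhibitors whose symbols did not meet the rule, 2 were lower, a share of 66.7%. Frzb, which belongs to the Sfrp family under another symbol, was among the lower ones. It had 638, 593 and 586 counts alone and 479, 487 and 535 in coculture (log2 fold change −0.35 ± 0.080 SE, adjusted p = 0.00793 by edgeR). The 3 tested genes of R-spondin receptors and norrin had 1 higher and 1 lower, a called share of 66.7%. The 4 tested transcripts of other known targets also had 1 each, a share of 50%, against 37.1% of all genes tested.

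Exons of 7 called members (Axin2, Fzd5, Fzd6, Lef1, Rspo3, Wnt11 and Wnt5a) overlap a gene on the opposite strand in GENCODE M21. The sources do not say if counting used strand, so reads of such pairs cannot be told apart. No overlapping gene with a row in the table had more than 12 counts in a library. The genes overlapping Rspo3 (Gm48159) and Wnt11 (Gm8398) had no row under these symbols, so their counts are not known. With limma on log2(FPKM + 1), which understates changes of low genes, the values of 11 of the 20 called members moved by over 1.5 times, all towards 0, and each kept its direction and its call.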

How the data were processed

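RNA-seq was analysed from primary mouse renal fibroblasts cultured alone or with Th17 cells. Per the study's methods, the authors used Seqtk to filter reads and Hisat2 2.0.4 to align them, and obtained fragment counts per gene with StringTie 1.3.3b. The submitters' processing notes name mm10, and 99.9% of the gene identifiers found in GENCODE M21 (GRCm38) overlap their annotated position there. The annotation, strand setting and treatment of multiply mapping reads are not given in the sources used here. The deposited table holds raw fragment counts and FPKM for each library. The FPKM values deposited by the authors carry no TMM factor, since FPKM, count and library total gave 1 gene length in all libraries to within 0.000774%.

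Groups came from the sample titles. The members and lists were chosen with earlier results of these data known. Genes were kept by filterByExpr (minimum count 10), TMM factors were applied, and the test was that of edgeR 4.0.16 in R 4.3.3 (glmQLFit, glmQLFTest, Benjamini-Hochberg over 13088 genes). SE is the log2 fold change divided by the square root of F. CPM uses TMM library sizes, and FPKM served for levels between genes. Every member could be named. Counts, log2 fold change, SE and adjusted p were given for called members whose mean in the higher group was 100 counts or more. Called members below that limit were given in the same way, with a bound in place of the fold change for Rspo1. CPM means and SD were given for a part of the called members. Other pathway genes were named past the 2-fold limit at the same mean of 100 counts. Frzb was named besides, as an Sfrp family member that the symbol rule missed, and Myc and Tnfrsf19 as the other tested targets. On simulated counts for this comparison (13088 genes), the edgeR test recovered 100% of genes changed by 2 and 95% of those changed by 1 on the log2 scale, with 12 unchanged genes called. The simulation changed 100 genes at each size and gave every gene the same dispersion (spread beyond counting noise, 0.0136). It therefore does not show recovery for genes that vary more, or where as many genes change as here. Floors cover counting error only, since fragments are not independent molecules. DESeq2 1.42.0, limma 3.58.1, other scalings and filters, a replicate block and leaving out each library were alternatives. Python 3.11.15, pandas 2.3.3 and matplotlib 3.10.9 were used.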

Additional observations from a re-analysis of the deposited data

How the results depend on the processing

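The number of members lower with Th17 cells was 15, and 13 to 15 under the 9 alternatives that kept all libraries and 14 or 15 without 1 library. The number higher was 5, and 4 or 5. No called member changed direction, and 18 of the 20 kept their call in each alternative that gave a value, the exceptions being Wnt5a and Wnt10b. Past the 2-fold limit, limma on log2(FPKM + 1) gave 3 lower and 1 higher, compared with 9 and 2, because the pseudocount shrinks changes of genes with low FPKM. Without 1 library the numbers were 8 to 10 lower and 2 higher. The members' median of −0.55 (also −0.55 with Rspo1 at its bound) was −0.21 with no filter on low counts, −0.40 with at least 10 counts in every library, both of which change the genes included, −0.30 with limma on log2(FPKM + 1), and from −0.61 to −0.46 without 1 library. The other pathway genes numbered 9 to 13 higher and 8 to 12 lower over the alternatives. Among uncalled members, leaving out 1 library turned the sign of Wnt5b (−0.03 to 0.56), Tcf7 (−0.04 to 0.61), Wnt9a (−0.05 to 0.40) and Fzd3 (−0.11 to 0.25).

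No pairing by the replicate numbers in the titles was detected, with same-numbered deviations correlated at 0.022, −0.001 and −0.009. Low correlations do not exclude a pairing, since counting noise enters these deviations. With the replicate number as a block, 15 members were lower and 5 higher, and 10 other pathway genes were lower. With library size as the only scaling, 43.9% of all called genes were lower, against 53.8% under TMM, and 75% of called members were lower under both. At these depths 24 members had too few counts to test, 9 of them with 0 counts in every library.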

Other observations

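Some genes of the wider pathway, named after their values had been seen, varied within groups or were too low to test. Apc, the scaffold of the destruction complex, was counted 1290, 1073 and 374 times alone and 1514, 461 and 636 in coculture, a spread within each group larger than the difference between them (log2 fold change −0.14, SE 0.466, edgeR adjusted p = 0.851). Ctnnb1, the gene of beta-catenin, had 4022, 6930 and 5952 counts alone and 7023, 6766 and 7020 in coculture, and it did not pass the test (log2 fold change 0.22, SE 0.171, edgeR adjusted p = 0.349). Celsr2, a cadherin of planar cell polarity, had 0, 5 and 2 counts alone and 19, 9 and 23 in coculture, without overlap, but was not tested. Sp5, a transcription factor induced by Wnt signals, had 1, 0 and 0 counts alone and 4, 1 and 7 in coculture and was not tested.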
